A study of Mus musculus with 8 samples.

Results

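Hepatocyte identity is kept by a small set of transcription factors that bind each other's genes and the genes of liver metabolism. Here 9 of them, Hnf4a, Cebpa, Cebpb, Foxa1, Foxa2, Foxa3, Onecut1, Onecut2 and Prox1, were described in mouse liver, taken by symbol from a table of 21358 genes. All 9 were found. The table holds RNA sequencing of 4 libraries labelled feeding glucose (FG) and 4 labelled starvation glucose (SG), all from mouse liver after 22 weeks of fasting every other day. The series text ties both labels to glucose intake in different metabolic states, and the comparison asks how that state bears on the hepatic transcriptome. Both groups share the fasting regimen. The series title speaks of metabolic dysfunction, but strain, sex, age, diet and the interval between the last glucose and collection are not given in the labels. The libraries are FG 93, FG 94, FG 95 and FG 96, and SG 101, SG 103, SG 104 and SG 105. The series text counts 4 mice per group, and nothing more is said of how the libraries relate to animals or batches.

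HNF4A is a nuclear receptor that drives genes of lipoprotein, clotting factor and bile acid production. The C/EBP proteins are leucine zipper factors: C/EBP alpha, encoded by Cebpa, holds hepatocytes in a quiescent, metabolically active state, and C/EBP beta, encoded by Cebpb, responds to hormones, acute phase signals and regeneration. The FOXA proteins open closed chromatin ahead of other factors, and the ONECUT proteins act in hepatocyte and bile duct development. PROX1 is a homeodomain protein that restrains nuclear receptors of liver, HNF4A among them.

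Levels are given in FPKM, which scales the fragments of a gene by its length and by the library's total, so genes can be set beside each other. Counted fragments per library numbered 38253764 to 41977438 in FG and 36545128 to 39214619 in SG. The fewest fragments behind any value of the 9 genes were 149, for Onecut1 in FG 96, and the most were 27901, for Hnf4a in SG 105. All 21 hepatocyte markers looked up (albumin, transthyretin, fibrinogen and others) were detected, with a summed level of 77152 to 90114 FPKM in FG and 80044 to 100668 FPKM in SG.

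The upstream sequences of 3 of the factors are shown because the results turn on them: Cebpa was the one factor called between the groups, and Foxa1 and Foxa2 were both highest in the same 2 libraries. Each is the 250 bases before the annotated start in RefSeq on GRCm38.p6, read 5′ to 3′ on the gene's strand. Cebpa is at chr7:35119043-35119292 on the plus strand, Foxa1, at the 1 start the promoter table holds, which lies inside the annotated gene, at chr12:57546112-57546361 on the minus strand and Foxa2, at the outermost of its 3 annotated starts, at chr2:148046970-148047219 on the minus strand. Capitals mark letters that match a searched motif on either strand.
Cebpa: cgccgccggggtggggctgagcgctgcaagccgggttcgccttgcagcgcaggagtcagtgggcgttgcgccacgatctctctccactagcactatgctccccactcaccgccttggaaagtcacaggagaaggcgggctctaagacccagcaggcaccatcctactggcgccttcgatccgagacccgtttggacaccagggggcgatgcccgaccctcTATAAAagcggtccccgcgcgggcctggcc
Foxa1: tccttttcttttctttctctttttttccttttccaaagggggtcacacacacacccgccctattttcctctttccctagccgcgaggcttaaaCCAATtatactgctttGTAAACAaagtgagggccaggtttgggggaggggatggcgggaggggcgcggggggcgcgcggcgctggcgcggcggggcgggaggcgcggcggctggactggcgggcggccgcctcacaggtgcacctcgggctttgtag
Foxa2: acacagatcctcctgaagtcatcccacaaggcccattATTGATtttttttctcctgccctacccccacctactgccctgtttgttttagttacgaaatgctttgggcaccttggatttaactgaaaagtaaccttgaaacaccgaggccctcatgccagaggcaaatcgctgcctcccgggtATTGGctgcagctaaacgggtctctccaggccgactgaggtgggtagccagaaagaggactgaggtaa

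The motifs searched were TTGCNNAA for C/EBP, TGTTTNC for FOXA, ATCNAT for ONECUT, CAAAGNNCA for HNF4, the E-box CACGTG, the TATA box TATAAA and the CCAAT box CCAAT, each on both strands. Positions count back from the start, with -1 the base before it. The Cebpa window held a TATA box at -30, which 12.4% of the 32851 promoter windows of that length held. A FOXA match lay at -141 of Foxa1, near a CCAAT box at -157 (FOXA matches were in 17.8% of all windows and CCAAT boxes in 33.8%). The Foxa2 window had an ONECUT match at -213, a match seen in 18.9% of all windows, and a CCAAT box at -68. Of the 12 windows of 8 factors in the table, ONECUT matches were also in the outermost Hnf4a window, at -59, and in that of Foxa3, at -189. None of the 12 windows held a match to the C/EBP or the HNF4 letters, which 9.56% and 5.49% of all windows held. The Cebpa window was 66.4% G and C, against a median of 52.4% over all windows.

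**Figure D1:**
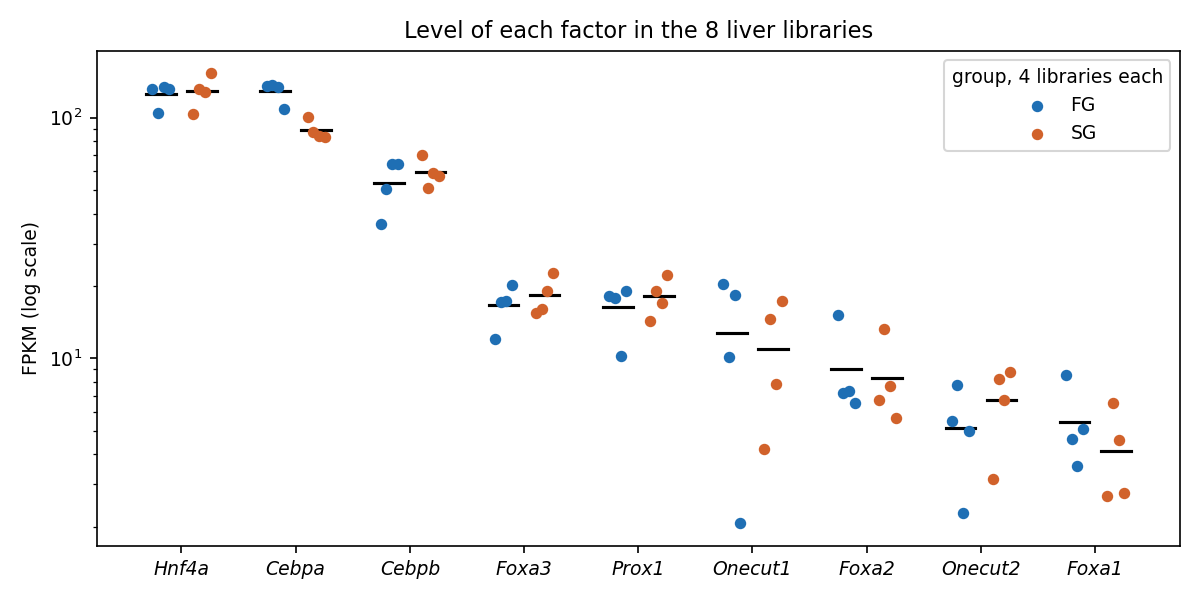
FPKM of each factor on a log axis, with 1 point per library (blue, the 4 FG libraries; orange, the 4 SG libraries) and a black line at each group mean. Cebpa is the one factor whose FG and SG points do not overlap, and Onecut1 has the widest scatter, from 2.07 to 20.4 FPKM within FG.

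Hnf4a and Cebpa stood at the top of the 9 in both groups, and Foxa1 and Onecut2 at the bottom by the deposited values. The place of Foxa1 depends on its gene model: the length behind its FPKM is 5140 bases, against 3327 bases of GENCODE exons, and with the latter its level would be 1.54 times higher, at means of 8.45 FPKM in FG and 6.39 FPKM in SG. In FG the order by mean was Cebpa, Hnf4a, Cebpb, Foxa3, Prox1, Onecut1, Foxa2, Foxa1 and Onecut2. In SG Hnf4a came before Cebpa and Onecut2 before Foxa1. Several neighbours in that order could not be ranked: in FG, Cebpa lay above Hnf4a in 2 of 4 libraries, Foxa3 above Prox1 in 2 and Prox1 above Onecut1 in 2. In SG, Hnf4a lay above Cebpa, Cebpa above Cebpb and Cebpb above Foxa3 in each of the 4 libraries. Averaged over all libraries, Hnf4a at 127 FPKM was above 97.7% of the genes in the table, Cebpb at 56.6 FPKM above 95.5% and Foxa1 at 4.80 FPKM above 73.3%.

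In the comparison of SG with FG, 1 of the 9 factors was called lower (Cebpa) and 0 were called higher, with a gene called at an adjusted p below 0.05 in limma's test over all 9867 tested genes. All 9 passed the filter on low values, an FPKM of at least 1 in at least 4 libraries. Among all tested genes 19.4% were called, 15.6% lower and 3.73% higher in SG, so a count of 1 in 9 does not exceed the background. The median log2 fold change of the 9 was 0.03, beside -0.135 for all tested genes. Each log2 fold change below is the SG mean minus the FG mean of log2(FPKM + 1).

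**Figure D2:**
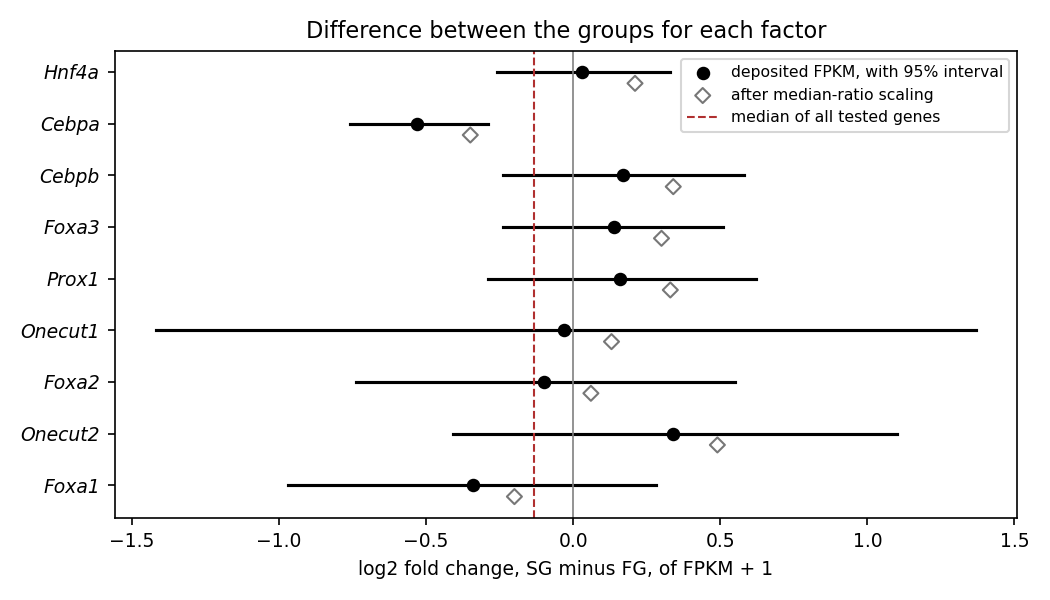
Log2 fold change of FPKM + 1, SG minus FG, for each factor: filled points with 95% intervals from limma on the deposited FPKM values, and open diamonds after median-ratio scaling between libraries. The interval of Cebpa (-0.76 to -0.29) is the one that does not reach 0, and that of Onecut1 (-1.42 to 1.37) is the widest.

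Hnf4a, the nuclear receptor at the centre of this network, was at 131, 105, 134 and 132 FPKM in FG 93, 94, 95 and 96, and at 104, 132, 128 and 153 FPKM in SG 101, 103, 104 and 105. The groups overlapped, with the lowest library of each near the same level. The log2 fold change was 0.03 (95% interval -0.26 to 0.33, limma adjusted p = 0.872). On the deposited scale, a change of FPKM + 1 to below 0.835 or above 1.26 times that in FG lay outside the interval. These bounds do not carry over to other scalings. The log2 fold change was 0.21 after median-ratio and 0.22 after trimmed-mean scaling (limma adjusted p = 0.358 and 0.343). Hnf4a lies on chromosome 2 from 163506811 to 163572907 (GRCm38), and its values do not separate transcripts from its proximal and distal promoters. Hnf4aos, a non-coding gene on the opposite strand that overlaps the Hnf4a locus, rose from 3.07 ± 0.638 to 5.64 ± 1.40 FPKM (SD, n = 4 each; limma adjusted p = 0.0250). No exon base is shared between them in GENCODE M21. The Hnf4aos groups did not overlap, and leaving out FG 93, FG 95 or SG 104 ended the call (adjusted p up to 0.0731), as did testing all genes with no filter (0.0694). Without a stated strand setting, its reads cannot be told apart from unspliced Hnf4a RNA.

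Cebpa was at 135, 137, 134 and 109 FPKM in FG 93, 94, 95 and 96. In SG 101, 103, 104 and 105 it was at 101, 87.3, 84.3 and 83.5 FPKM. Each SG library lay below each FG library, with FG 96 and SG 101 the closest. Its mean fell by 30.9%, from 129 ± 13.2 to 89.0 ± 8.18 FPKM (SD, n = 4 each), a log2 fold change of -0.53 (SE 0.104, 95% interval -0.76 to -0.29, limma adjusted p = 0.0120). The exact two-sided permutation p was 0.0286, the smallest that the 70 assignments of 4 and 4 libraries can give. The groups did not overlap in 26.1% of all tested genes, and 4.99% of tested genes had a smaller limma p. The adjusted p stayed between 0.00758 and 0.0403 when any 1 library was left out. It was 0.0502 after median-ratio scaling and 0.0729 after trimmed-mean scaling, where the log2 fold change was -0.35 and -0.34. Median-ratio scaling moved the median of all tested genes from -0.135 to 0.005 and the share of calls that were lower from 80.8% to 48.3%, and relative to the median on the deposited scale the change of Cebpa was -0.39.

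Cebpa is a gene of a single exon at positions 35119293 to 35121928 of chromosome 7, and the gene length behind its FPKM, 2636 bases, equals the GENCODE exon length. Cebpa RNA is also made in myeloid cells. In these bulk samples fewer cells of a type cannot be told apart from less RNA per cell. The summed level of 10 macrophage markers was 193 to 301 FPKM in FG and 168 to 327 FPKM in SG, with 0 of 10 called. That of 10 sinusoidal endothelial markers was 162 to 192 FPKM in FG and 126 to 148 FPKM in SG, with 2 of 10 lower (Clec4g and Fcgr2b). Among all tested genes 15.6% were called lower, and after median-ratio scaling 0 of these 10 markers were called. The part of either cell type in the Cebpa result was not tested.

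Cebpb, the hormone- and stress-responsive partner, was at 36.1, 50.4, 64.3 and 64.2 FPKM in FG and at 70, 51.2, 58.9 and 57.5 FPKM in SG, in the same library order. FG 93 was the lowest of the 8 and SG 101 the highest, and the groups overlapped. The log2 fold change was 0.17 (95% interval -0.24 to 0.58, limma adjusted p = 0.540). The ratio of Cebpa to Cebpb was 3.75, 2.72, 2.08 and 1.70 in the FG libraries and 1.44, 1.71, 1.43 and 1.45 in the SG libraries. It averaged 2.56 ± 0.897 in FG and 1.51 ± 0.132 in SG (SD, n = 4 each), and the lowest FG ratio, in FG 96, was just under the highest SG ratio, in SG 103. The ratio of Cebpa to Hnf4a averaged 1.04 ± 0.197 and 0.711 ± 0.185, and SG 101, at 0.976, lay within the FG range of 0.826 to 1.30.

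**Figure D3:**
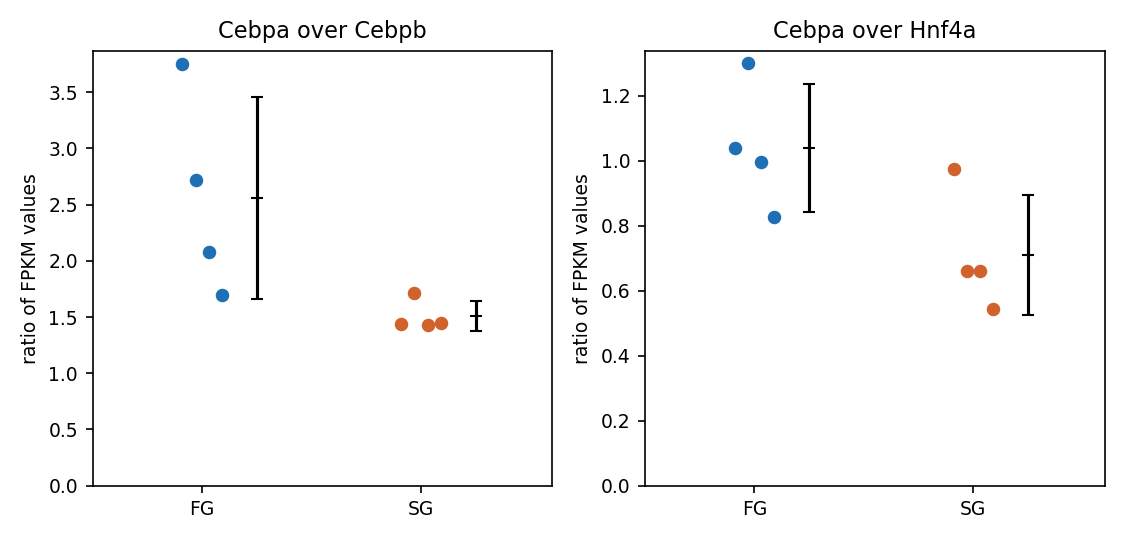
Ratio of FPKM values of Cebpa to Cebpb (left) and of Cebpa to Hnf4a (right) in each library, with the group mean and SD beside the points (n = 4 each). The SG ratios of Cebpa to Cebpb lie between 1.43 and 1.71, and those in FG spread from 1.70 to 3.75.

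Of the relatives outside the 9, 6 were in the table and 4 tested. Ddit3, the stress-induced C/EBP member that dimerizes with others and blocks their binding, fell from 2.22 ± 0.406 to 1.25 ± 0.271 FPKM (limma adjusted p = 0.0237, SD, n = 4 each). Leaving out FG 93, FG 96, SG 103 or SG 105 ended that call (adjusted p up to 0.0700), as did median-ratio scaling (0.0660) and testing with no filter (0.0665). Cebpg, another dimer partner, averaged 11.7 ± 2.90 in FG and 7.85 ± 1.76 FPKM in SG, short of the threshold (limma adjusted p = 0.0910), although its groups did not overlap. Cebpd was at 3.27 ± 0.905 and 3.33 ± 0.443 FPKM, and Cebpe at 5.91 ± 0.266 and 4.23 ± 1.57 FPKM (limma adjusted p = 0.127, or 0.0268 without SG 101). Hnf4g and Prox2 were below the filter, at means of at most 0.0463 and 0.338 FPKM.

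Among the FOXA pioneer factors, Foxa3 had the highest level in 7 of 8 libraries and Foxa1 the lowest in all 8 by the deposited values. With the GENCODE exon length Foxa1 would be the lowest in 6 of 8, lying above Foxa2 in FG 96 and above Foxa3 in FG 93. Foxa1 was at 8.54, 4.62, 3.59 and 5.11 FPKM in FG 93, 94, 95 and 96, and at 2.68, 6.54, 4.58 and 2.76 FPKM in SG 101, 103, 104 and 105. FG 93 and SG 103 were the highest of their groups, and the groups overlapped. Its log2 fold change was -0.34 (95% interval -0.97 to 0.28, limma adjusted p = 0.408).

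Foxa2 was at 15.1, 7.20, 7.32 and 6.55 FPKM in FG and at 6.74, 13.2, 7.70 and 5.64 FPKM in SG, in that library order. The same 2 libraries, FG 93 and SG 103, were high, and the other 6 lay within 5.64 to 7.70 FPKM. The log2 fold change was -0.10 (95% interval -0.74 to 0.55, limma adjusted p = 0.836), and its sign turned after median-ratio, trimmed-mean or quantile scaling (0.06, 0.07 and 0.06). Foxa3, linked to glucose balance in prolonged fasting, was at 12.1, 17.1, 17.3 and 20.1 FPKM in FG and at 15.4, 16.0, 19.1 and 22.6 FPKM in SG. FG 93, the library with the most Foxa1 and Foxa2, had the least Foxa3. Foxa3 had a log2 fold change of 0.14 (95% interval -0.24 to 0.51, limma adjusted p = 0.596). Foxa3 made up 33.8% of the summed FOXA level in FG 93 and 44.8% in SG 103, and 59.2% to 72.9% in the other 6 libraries.

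Onecut1 had the widest spread of the 9. It was at 20.4, 10.1, 18.4 and 2.07 FPKM in FG 93, 94, 95 and 96, and at 4.19, 14.6, 7.82 and 17.4 FPKM in SG 101, 103, 104 and 105. The highest library was 9.88 times the lowest in FG and 4.14 times in SG, so each group held both high and low libraries. These values rest on 149 to 1426 fragments. The within-group SD on the log2 scale was 1.08, beside a median of 0.17 for the 3163 tested genes within 2-fold of its level, of which 99.2% had a smaller SD. The log2 fold change was -0.03 with a 95% interval of -1.42 to 1.37 (limma adjusted p = 0.979). That is wide enough to hold a change of FPKM + 1 of 2.58-fold upwards or to 0.373 times that in FG. The length behind its FPKM, 1824 bases, is short of the 4113 bases of GENCODE exons, so its level against the other genes depends on that gene model. Onecut1 RNA is also made by bile duct cells. The 9 other biliary markers in the list summed to 29.0 to 39.8 FPKM in FG and 18.4 to 25.8 FPKM in SG, with 0 of them at 0 in all libraries. Spp1 alone made up most of this sum in each library except FG 96. It was at 19.2 of 29.0 FPKM in FG 95 and 10.5 of 18.4 FPKM in SG 104, but at 15.9 of 39.8 FPKM in FG 96. The lower sum in SG therefore rests largely on Spp1 and FG 96, and is not a broad measure of bile duct cells. Within FG that sum was highest in FG 96, where Onecut1 was lowest, and within SG it was highest in SG 103, at 25.8 FPKM, where Onecut1 was at 14.6 FPKM. The part of bile duct cells in the Onecut1 values was not tested.

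Onecut2 was at 5.52, 7.74, 2.28 and 4.99 FPKM in FG and at 3.17, 8.18, 6.75 and 8.79 FPKM in SG, in the same library order. FG 95 and SG 101 were the lowest, 1 in each group, and the groups overlapped. Onecut2 had a log2 fold change of 0.34 (95% interval -0.41 to 1.10, limma adjusted p = 0.496). The ratio of Onecut1 to Onecut2 ranged from 0.414 in FG 96 to 8.07 in FG 95, and from 1.16 to 1.97 in SG.

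Prox1 was at 18.2, 17.8, 10.2 and 19.1 FPKM in FG and at 14.3, 19, 17.0 and 22.3 FPKM in SG. FG 95 was the lowest library and SG 101 the next, as for Onecut2, and SG 105 the highest of both. For Prox1 the log2 fold change was 0.16 (95% interval -0.29 to 0.62, limma adjusted p = 0.594). Prox1 RNA is also made in lymphatic endothelium, whose 5 listed markers summed to 8.73 to 12.9 FPKM in FG and 6.77 to 16.2 FPKM in SG. Of the 3 tested, 0 were called, where 19.4% of all tested genes were called. The part of lymphatic endothelium in the Prox1 values was not tested. Prox1os, on the opposite strand and sharing 133 exon bases with Prox1 in GENCODE M21, was at 6.44 ± 1.73 and 8.63 ± 0.843 FPKM (SD, n = 4 each; limma adjusted p = 0.141), and no source used here says whether strand entered the counting.

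Pairs of factors were compared next across libraries. Over the 8 libraries, Foxa1 and Foxa2 had a Pearson r of 0.87 on log2(FPKM + 1) (exact permutation p = 0.00407, adjusted over 36 pairs of factors 0.0732) and a Spearman rho of 0.64 (exact permutation p = 0.0962, adjusted 0.693). Without FG 93 and SG 101, the 2 libraries farthest from the median of Foxa1, r was 0.80. Without FG 93 and SG 103, the 2 libraries highest in both genes (a choice made after seeing the data), r was 0.53 over 6 libraries, so much of the relation rests on these 2 libraries. After subtracting each group's mean it was 0.90.

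Onecut2 and Prox1 had an r of 0.89 (exact permutation p = 0.00397, adjusted 0.0732) and a rho of 0.69 (exact permutation p = 0.0694, adjusted 0.693). Without FG 95 and SG 101, r was 0.40, so that relation rests on these 2 libraries. Foxa2 and Foxa3 ran in opposite directions, with r = -0.79 (exact permutation p = 0.0123, adjusted 0.127), rho = -0.67 (exact permutation p = 0.0831, adjusted 0.693) and r = -0.59 without FG 93 and SG 103. Cebpb and Foxa1 had r = -0.80 (exact permutation p = 0.0142, adjusted 0.127) and rho = -0.71 (exact permutation p = 0.0576, adjusted 0.693), and r = -0.38 without FG 93 and SG 101. Of the 36 pairs, 5 had an unadjusted exact p below 0.05 by Pearson's r and 0 by Spearman's rho, and 0 passed after adjustment by either.

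**Figure D4:**
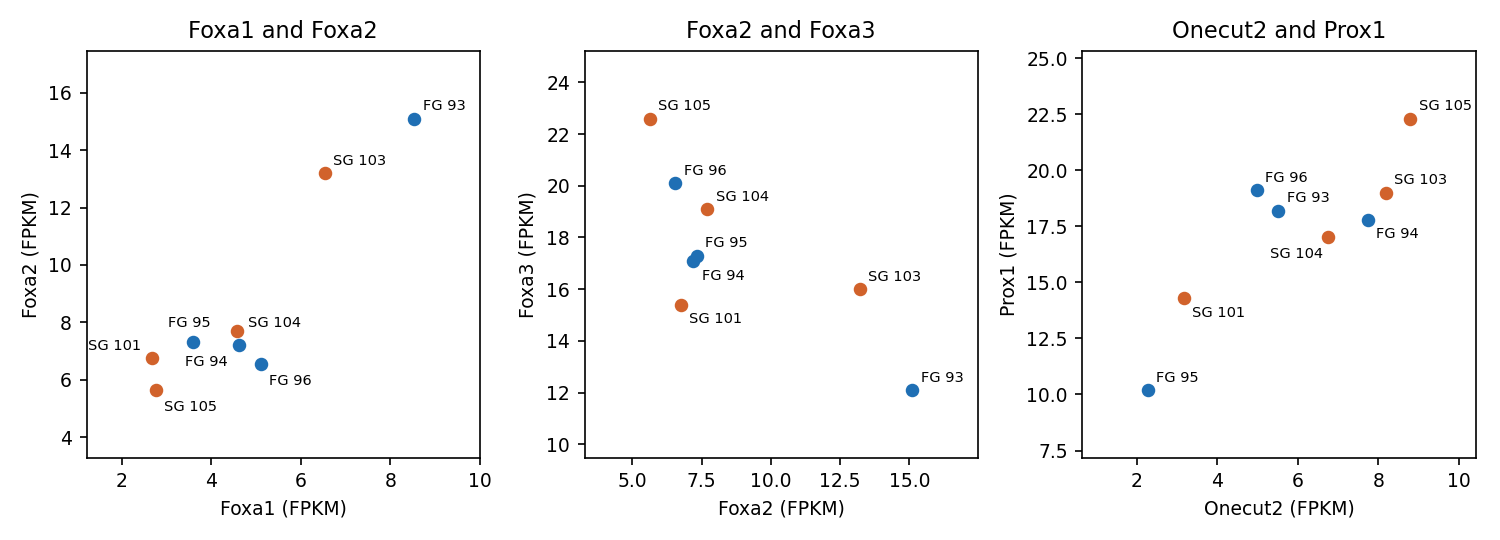
FPKM of 3 pairs of factors, Foxa1 and Foxa2 (left), Foxa2 and Foxa3 (middle), and Onecut2 and Prox1 (right), with 1 labelled point per library (blue FG, orange SG). FG 93 and SG 103 lie apart with high Foxa1 and Foxa2, and FG 95 has the lowest Onecut2 and Prox1.

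FG 93 stood at an end of the range for 5 of the 9 factors: of all 8 libraries it had the most Foxa1, Foxa2 and Onecut1 and the least Cebpb and Foxa3. SG 105 stood at an end for more factors, with the most Hnf4a, Foxa3, Onecut2 and Prox1 and the least Cebpa and Foxa2. FG 93 also had the most H19, an imprinted RNA of fetal liver, at 42.9 FPKM, against 0.0111 to 8.47 FPKM in the other 7. Of 16 fetal and progenitor genes listed, 15 were in the table and 4 tested. Spp1, osteopontin, which is also in the biliary list, was the 1 called, lower in SG at 12.4 ± 2.43 against 19 ± 2.50 FPKM (SD, n = 4 each; limma adjusted p = 0.0226). Among all tested genes 15.6% were called lower. The Spp1 call ended with median-ratio scaling (0.0743), with no filter (0.0567) and on leaving out FG 93, FG 94, FG 95, SG 104 or SG 105 (adjusted p up to 0.0619). Unlike H19, Spp1 was not highest in FG 93: it was higher in FG 94 and in FG 95, at 19.2 FPKM in the latter. H19 is 1 gene of this list, and whether FG 93 was fetal-like as a whole was not tested. Without FG 93 the log2 fold change was 0.16 for Foxa2, -0.14 for Foxa1 and -0.50 for Cebpa.

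Other genes were ranked by how closely their log2(FPKM + 1) values followed each factor over the 8 libraries, among 9858 tested genes. Sema4a, a semaphorin, was among the closest to Cebpa, with r = 0.983. Its groups did not overlap, and it was called lower in SG (limma adjusted p = 0.00625). After subtracting group means, Dact2 was closest to Cebpa (r = 0.996). Foxa3 was followed most closely by Klf15, a glucocorticoid-induced factor of amino acid breakdown (r = 0.970), and, after subtracting group means, by Tat, tyrosine aminotransferase (r = 0.992). Tat was at 135, 400, 387 and 665 FPKM in FG and at 523, 459, 931 and 1553 FPKM in SG, with its lowest value in FG 93 and its highest in SG 105, as for Foxa3.

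Abcb4, the canalicular phospholipid floppase, was second closest to Foxa1 (r = 0.967) after Fhod1 (r = 0.980). Tdg, a DNA glycosylase, was closest to Foxa2 (r = 0.961). Zscan25 and Ptpn9 were closest to Onecut1 (r = 0.935 and 0.921), Rrp12 to Hnf4a (r = 0.968) and Mfsd1 to Cebpb (r = 0.929). Suz12 and Rev3l were closest to Onecut2 (r = 0.996 and 0.995), and Phc3 to Prox1 (r = 0.971). The gene lengths behind the FPKM of Onecut2 and Prox1, 13905 and 8594 bases, exceeded those of 98.0% and 91.4% of tested genes, whose median was 3278 bases. Rev3l and Phc3 were also long, at 11401 and 11178 bases, and Suz12 was 4373 bases. A part of length in this likeness was not tested. These likenesses, the highest of 9858 genes over 8 libraries, are descriptions only.

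The nearest gene on each side and the genes overlapping a factor came to 24, of which 8 were tested, 7 were in the table below the filter and 9 were not analysed here. Hnf4aos was the 1 called of the 8, where 19.4% of all tested genes were called. Gm30446, near Prox1 and below the filter, was at 0.342 ± 0.0587 and 0.788 ± 0.262 FPKM (SD, n = 4 each), with groups that did not overlap and no limma test. Sympk, which begins 838 bases from Foxa3, was at means of 15.8 and 14.9 FPKM (limma adjusted p = 0.604). 9030622O22Rik, 2364 bases from Foxa2, was at 1.42 and 1.99 FPKM (limma adjusted p = 0.484), and Gm35724, 6961 bases from Cebpa, at 2.13 and 3.28 FPKM (limma adjusted p = 0.153).

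Genes known from other work to be controlled by these factors went both ways, and the lists share members. After median-ratio scaling the counts of higher and lower calls were 5 and 2 for HNF4A, 4 and 0 for C/EBP, 5 and 2 for FOXA and 2 and 0 for ONECUT, where 5.51% of all tested genes were called higher and 5.16% lower. On the deposited scale, 3.73% of all tested genes were called higher and 15.6% lower. There, of 25 tested genes with known HNF4A control, 4 rose and 4 fell, with a median of 0.10 beside -0.135 for all tested genes. Cyp8b1, whose enzyme sets the cholic acid share of bile acids, increased from 79.8 ± 24.1 to 245 ± 34.5 FPKM, and Mttp, which loads lipid onto nascent lipoproteins, fell from 103 ± 5.40 to 68.5 ± 7.86 FPKM (limma adjusted p = 0.00166 and 0.00698; SD, n = 4 each). Among 19 tested genes with known C/EBP control, 3 rose and 2 fell, with a median of 0.27. Ass1, of the urea cycle, rose from 1144 ± 324 to 2797 ± 971 FPKM, while Gys2, the liver glycogen synthase, fell from 144 ± 17.6 to 89.6 ± 17.8 FPKM (limma adjusted p = 0.0167 and 0.0154; SD, n = 4 each), a fall that did not pass after median-ratio scaling (0.0626). With no filter on low values the Ass1 call ended (adjusted p = 0.0585). Alb, with both C/EBP and FOXA sites in its enhancers, was at 41490 ± 3195 and 41909 ± 5999 FPKM.

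Of 14 tested genes with known FOXA control, 5 rose and 2 fell, with a median of 0.19, where 3.73% of all tested genes were called higher and 15.6% lower. Igfbp1, an insulin-repressed IGF-binding protein, was higher in each SG library than in each FG library (15.4 to 31.3 FPKM in FG and 36.6 to 232 FPKM in SG, limma adjusted p = 0.0151, or 0.0515 with no filter). Slc10a1, the bile salt uptake carrier, which is in both the HNF4A and the FOXA lists, fell from 507 ± 46.5 to 315 ± 34.9 FPKM (limma adjusted p = 0.00576; SD, n = 4 each). Of 10 tested genes with known ONECUT control, 1 rose (Cyp7a1, which starts bile acid production from cholesterol, from 20.2 ± 16.3 to 112 ± 29.4 FPKM, limma adjusted p = 0.00615; SD, n = 4 each) and 1 fell (Slc2a2, the liver glucose carrier, at an adjusted p of 0.0496). Cyp7a1 and Slc2a2 are both also in the HNF4A list. The Slc2a2 call was lost without any 1 library except SG 101 (highest adjusted p = 0.107), after median-ratio scaling (0.185) and with no filter (0.120).

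Among 26 other tested transcription factors of liver, 3 rose and 4 fell, with a median of -0.04. Of all tested genes, 3.73% were called higher and 15.6% lower. Atf5, an amino acid stress factor, fell from 137 ± 41.5 to 41.3 ± 12.9 FPKM, and Xbp1, of the unfolded protein response, from 105 ± 18.6 to 45.5 ± 12.6 FPKM (limma adjusted p = 0.00389 and 0.00675; SD, n = 4 each). Nfil3, a repressor of the clock's D-box genes, rose from 1.80 ± 0.536 to 5.33 ± 1.38 FPKM, and Nr1i2, the xenobiotic receptor PXR, from 24.3 to 30.4 FPKM in FG to 36.9 to 50.6 FPKM in SG (limma adjusted p = 0.00597 and 0.00753; SD, n = 4 each). Of 11 tested coregulators of HNF4A and partners of PROX1, 0 rose and 1 fell, Ncoa1, a nuclear receptor coactivator, from 3.08 ± 0.374 to 2.09 ± 0.115 FPKM (limma adjusted p = 0.0231; SD, n = 4 each). Median-ratio scaling ended the Ncoa1 call (0.0789), as did testing with no filter (0.0508) or leaving out FG 93, FG 94, SG 104 or SG 105 (adjusted p up to 0.0683).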

How the data were processed

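The deposited values are FPKM, made by the authors for 21358 genes in 8 libraries. The tools named in the submitters' processing notes are HISAT2, fastp, DESeq2 and HTSeq, and the builds mm10 and GRCm38; versions, annotation and strand setting are not given in the sources used here. All expression columns were matched to samples by label. FPKM are not counts, so log2(FPKM + 1) was modelled in limma 3.58.1 (R 4.3.3), with moderated variances that follow the mean, no covariates and all 8 libraries, two-sided, over 9867 genes with at least 1 FPKM in at least 4 libraries, with Benjamini-Hochberg adjustment over all of them. Intervals are 95% and from the same fit. Whole fragment numbers were recovered from the steps of the values for 100.0% of genes within 0.02 fragments; they gave depths, gene lengths and one alternative (limma voom). Both procedures were checked on simulated data.

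The 9 factors and all gene lists were chosen with earlier results of these data known. Named genes were the 9 factors, up to 4 called genes by p and the 2 most abundant of each other list, family relatives, annotated neighbours, and the genes closest to each factor by Pearson r; of these, the ones needed for the account are printed. One gene that the rule names is not reported here. The marker genes Clec4g and Fcgr2b were named after their values were seen. Alternatives covered the pseudocount, the filter, the scaling between libraries, the variance model and leaving out each library. The GENCODE length for Foxa1 and the Foxa1 and Foxa2 correlation without their highest libraries were added after seeing the data.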

Additional observations from a re-analysis of the deposited data

Results flagged for a closer look

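Within groups of 4 libraries, a library was picked out when its gap to the nearest other, as a share of the group's range, exceeded Dixon's 95% critical value. For normally distributed values chance picks out about 1 in 20 groups. Of the 18 groups of values of the 9 factors, 4 were picked out, all in FG. The 18 groups come from the same libraries and are not independent. The share picked out among all tested genes was not computed, so no excess over chance is read from the 4. Hnf4a was low in FG 94 at 105 FPKM, against 131 to 134 FPKM in the other FG libraries. Cebpa was low in FG 96 at 109 FPKM, against 134 to 137 FPKM, and without that library its log2 fold change was -0.60. Foxa2 was high in FG 93 at 15.1 FPKM, against 6.55 to 7.32 FPKM. Prox1 was low in FG 95 at 10.2 FPKM, against 17.8 to 19.1 FPKM.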

How the results depend on the processing

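Cebpa stayed lower in SG in every alternative run. Its log2 fold change was -0.35 after median-ratio scaling and -0.34 after trimmed-mean scaling, neither called, so 0 of the 9 factors were called in those 2 settings and 1 in the others. Leaving out each library in turn gave -0.60 to -0.49 for Cebpa and 1 factor called each time. None of the other 8 factors was called in any setting run. Their ranges over the left-out libraries were -0.05 to 0.14 for Hnf4a, -0.01 to 0.27 for Cebpb, -0.55 to -0.14 for Foxa1, -0.32 to 0.16 for Foxa2, -0.00 to 0.23 for Foxa3, -0.64 to 0.32 for Onecut1, 0.07 to 0.62 for Onecut2 and -0.03 to 0.27 for Prox1. Onecut1 changed sign to 0.01 with a pseudocount of 0.1, 0.13 with median-ratio, 0.14 with trimmed-mean and 0.15 with quantile scaling, 0.53 with library weights and 0.01 with voom. Foxa2 changed sign to 0.06, 0.07 and 0.06 with those scalings and 0.09 with library weights. Cebpd changed sign to -0.05 with library weights, -0.07 without FG 93, -0.03 without FG 94 and -0.01 without SG 105. The cause was not tested. Foxa1 had no value under the filter at a mean of 5 FPKM, which it did not pass.

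The number of all genes called was 1912. It was 1133 with no filter, where more genes were tested, and 1053, 988 and 1078 with median-ratio, trimmed-mean and quantile scaling. With library weights it was 2748. Over the left-out libraries it ran from 834 (without FG 93) to 2363 (without SG 101): leaving out FG 95 gave 1102, SG 103 gave 1087, and SG 104 and SG 105 each gave 1036. Genes called in the other gene lists, cell type markers aside and each gene counted once, numbered 25. They were 10 with no filter and 13 to 31 over the left-out libraries (13 without FG 93, 14 without SG 105). Of the named genes called, 11 lost the call with no filter (adjusted p 0.0508 to 0.266). No paired analysis was possible because the FG and SG libraries share no replicate number. With 4 libraries in a group, the intervals are wide, the widest being that of Onecut1.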
